A study of Mus musculus with 4 samples.

Results

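The genes described here are 8 neurotrophin system genes chosen by symbol from the 32681 genes of the deposited table: the ligands Bdnf and Ntf3, the Trk receptors Ntrk2 and Ntrk3, the shared receptor Ngfr, and the sortilin family receptors Sort1, Sorcs1 and Sorcs3. All 8 passed the filter on low values. They were followed in 4 RNA sequencing libraries from primary neuron cultures. The cultures were made from neocortex of wild-type CD-1 mouse embryos, an outbred strain, at embryonic day 13 and grown in Neurobasal medium with B27 supplement. A short hairpin RNA (shRNA) was transfected into each: a control hairpin for 2 libraries and a DcpS hairpin for the other 2. DcpS degrades the cap structure that remains when an mRNA has been decayed. The labels and design text used here give neither the hairpin's sequence nor the share of cells that took it up, nor the days in culture, and they name no cell sorting step. The library titles number a set 1 and a set 2 in each group, and do not say what a set shares. Whether libraries of a group came from separate cultures or litters is not stated, so the p-values reflect how far these 4 libraries scatter, and that scatter may be technical.

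Neurotrophins are secreted survival and growth factors of neurons. They are made as proneurotrophins and cleaved to a mature form. Mature BDNF acts mainly through TrkB, the product of Ntrk2, and neurotrophin-3 (Ntf3) mainly through TrkC, the product of Ntrk3. Both are receptor tyrosine kinases that signal through the Ras-ERK, PI3K-AKT and phospholipase C gamma routes. All neurotrophins also bind p75NTR, the product of Ngfr. Sortilin (Sort1) and its relatives carry a Vps10p domain, bind proneurotrophins or Trk receptors and take part in their trafficking. Ntrk2 and Ntrk3 each give rise to receptors with and without the kinase domain, and a table by gene does not separate these forms.

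In the mouse genome (GRCm38, GENCODE M21) the ligand genes are Bdnf at chr2:109674700-109727007 on the plus strand and Ntf3 at chr6:126101412-126166910 on the minus strand. The Trk receptor genes are Ntrk2 at chr13:58806569-59133970 (plus) and Ntrk3 at chr7:78175959-78738012 (minus), and Ngfr lies at chr11:95568818-95587735 (minus). Sort1 lies at chr3:108284082-108361511 (plus), while Sorcs3, at chr19:48206025-48805505 (plus), and Sorcs1, at chr19:50143299-50678646 (minus), share a chromosome. All are protein-coding genes.

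The libraries held 17754768 to 21793685 reads. Dcps itself stood at a normalised read count (reads divided by the library's size factor) of 499.8 and 507 in the control libraries, against 114 and 119.6 with DcpS shRNA, which left 23.3% of the control mean. An antisense gene that shares 111 exon bases with Dcps stood at 55.1 to 84.5 normalised reads. Transcripts of neuronal genes were abundant in all 4 libraries: the control means of the neuronal tubulin Tubb3 and of doublecortin, Dcx, were 19772 and 26325 normalised reads. The sum over 7 neuronal markers was 83314 to 84235 in the control libraries, against 80118 to 81246 with DcpS shRNA. Of these 7 markers 2 were lower, the synaptic genes Snap25 (log2 fold change −0.26; limma, Benjamini-Hochberg adjusted p 0.0108) and Syt1 (−0.22, 0.0316), and 1 was higher, the neuronal splicing factor Rbfox3 (0.24, 0.0261). Of 10 meningeal fibroblast markers 8 were lower with DcpS shRNA and 0 higher, and their sum went from 16522 to 17957 in the controls to 10110 to 10530. Of 9 endothelial and mural markers 6 could be tested, 3 were lower (Kdr, Pdgfrb and Acta2) and 0 higher. The sum over the 9 went from 735 to 789 down to 419 to 452. Pdgfrb made up most of this sum, with a mean of 520 in the controls and 316 with DcpS shRNA. The endothelial gene Pecam1 stood at 5.70 and 12.3 in the control libraries, against 20.0 and 14.5 with DcpS shRNA. It did not pass (limma, Benjamini-Hochberg adjusted p 0.263). Of 8 astrocyte markers 7 could be tested. Of these, 4 were lower and 1 higher, and the sum over the 8 was 7980.5 to 8267 in the control libraries, against 7521 to 7658 with DcpS shRNA. In 7 further lists (radial glia, interneurons, Cajal-Retzius cells, deep-layer and upper-layer neurons, oligodendrocyte lineage and microglia) 0 or 1 marker was lower and 0 or 1 higher in each. With DcpS shRNA the sums of these lists stood at 90.1% of the control mean for interneurons, 90.7% for upper-layer neurons and 93.7% for microglia. They stood at 93.85% for Cajal-Retzius cells, 94.1% for the oligodendrocyte lineage, 98.9% for deep-layer neurons and 104.5% for radial glia. The oligodendrocyte lineage sum joins opposite changes. In that list Pdgfra was lower, at 64.6% of its control mean, and Mbp higher, at 137.9%. The median log2 fold change of that list was −0.40. No marker in these lists was at 0 in all libraries. In bulk RNA, fewer cells of a type cannot be told apart from less RNA per cell.

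**Figure D1:**
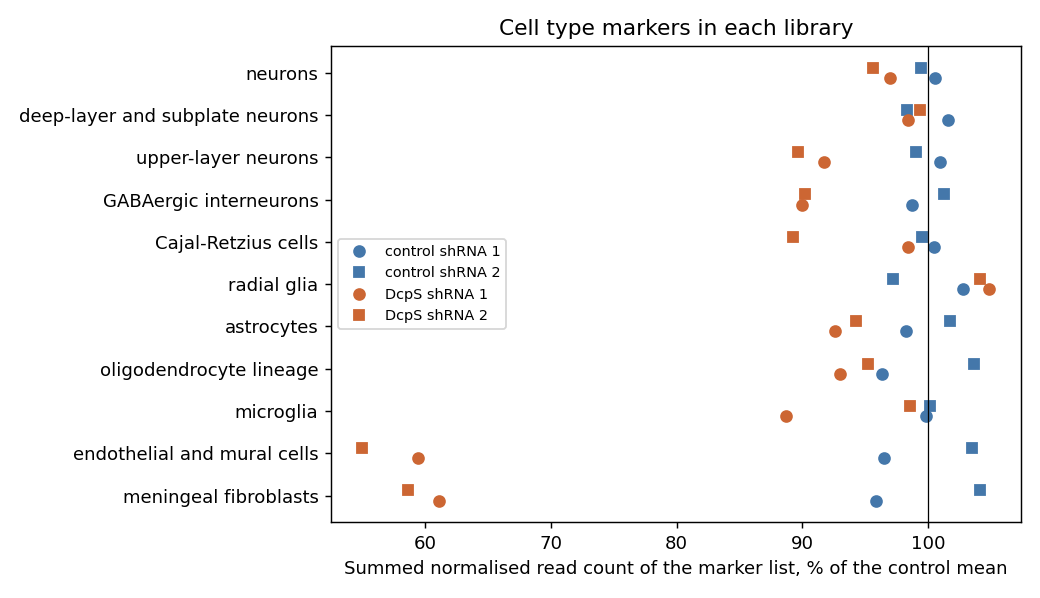
Summed normalised read count of each cell type marker list in each library, as a percent of the mean of the 2 control libraries (x axis), with circles for number 1 and squares for number 2 libraries. The fibroblast and the endothelial and mural lists lie near 60% in both DcpS shRNA libraries (means 59.9% and 57.2%), and the neuron list at a mean of 96.3%.

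Both Trk receptors were lower with DcpS shRNA, and none of the 8 genes passed the test in the higher direction. Ntrk3, the neurotrophin-3 receptor, was at 78.9% of its control mean and Ntrk2, the BDNF receptor, at 83.2%. The ligands Bdnf and Ntf3, p75NTR and the sortilin family did not pass. Thus 2 of 8 genes were lower at a Benjamini-Hochberg adjusted p under 0.05 (limma), where 3.65% of the 18110 genes tested were lower, 2.14% higher and 5.79% changed in either direction. The median log2 fold change of the 8 was −0.02, and that of all genes tested 0.00074.

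The annotated 3′ UTRs of both lowered receptors contain a short word that is also found in the Dcps transcript. A hairpin RNA is cut into a short guide strand, and transcripts that pair with the guide's seed can be lowered along with the intended target. Since the hairpin's sequence is not given, earlier work on these data picked out a pair of 7-base words, ACGTGCA and CACGTGC, that occur in Dcps and were frequent among lowered genes. These are called seed words here. They were chosen on these libraries and so are no independent evidence about any of the genes below. The sites in the 8 genes are shown with the Dcps site, as 30 bases of the sense strand (GRCm38, GENCODE M21) with the seed word in capitals, because they fall in Ntrk2, Ntrk3 and Sort1 and in none of the other 5 genes:

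Dcps, chr9:35124745-35124774, minus strand: actatcacctgCACGTGCatttcacagctc

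Ntrk3, site nearer the stop codon, chr7:78191312-78191341, minus strand: agaacccaaggCACGTGCatttcaaggagc

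Ntrk3, distal site, chr7:78184981-78185010, minus strand: aaaaagtacatACGTGCAtctcatgcatca

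Ntrk2, chr13:59131702-59131731, plus strand: gaactcacacaCACGTGCtcacaccagccc

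Sort1, chr3:108361118-108361147, plus strand: ctcagggtcccCACGTGCctgttgtcctcc

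The Ntrk3 site nearer the stop codon starts 1229 bases after it and, like the Dcps site, holds both words in overlap. It shares an unbroken run of 14 bases with Dcps, GCACGTGCATTTCA. Among the 1095 tested genes other than Dcps with a seed word in a scanned 3′ UTR, Ntrk3 alone had a run that long through the word. For Ntrk2 and Sort1 the run was 7 bases, the word itself. Matching bases on both sides of the word count toward a run. The hairpin's sequence is not given, so how much of a run could pair with its guide is not known. The Ntrk3 and Ntrk2 sites lie in the longest annotated 3′ UTRs of these genes, of 16600 and 5617 bases, and in 1 of 4 and 1 of 7 scanned transcripts, so transcripts with a shorter 3′ UTR lack them. The Sort1 site was in 2 of 2 scanned transcripts. The Dcps site lies in coding sequence in one annotated transcript and in the 3′ UTR of another.

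A seed word was found in 3 of the 8 genes (37.5%) and in 1096 of the 13699 tested genes that could be scanned. The 8 genes have long 3′ UTRs, with a median of 3205.5 bases for the longest form against 1228 over the genes scanned, and a longer UTR holds any word more often. Among genes whose longest 3′ UTR has at least 5000 bases, as Ntrk2 and Ntrk3 do, 30 of 157 with a seed word were called lower (19.1%), and 38 of 499 without one (7.62%). Among genes with shorter 3′ UTRs, as Sort1 has, the counts were 184 of 939 (19.6%) and 394 of 12104 (3.26%). The words were picked as frequent among lowered genes of these same libraries. A higher share among genes with a word follows from that choice and is no independent evidence. The part of these sites in the lower Ntrk2 and Ntrk3 values was not tested.

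**Figure D2:**
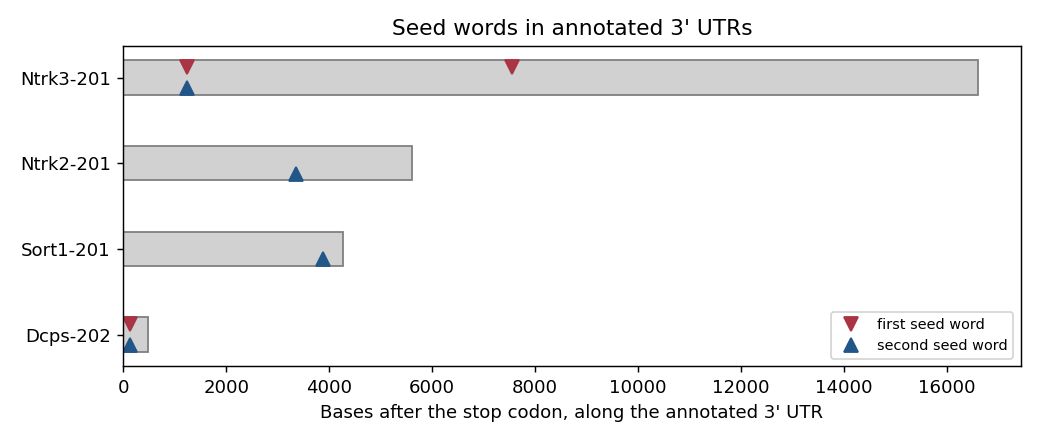
Annotated 3′ UTRs of 1 transcript each of Ntrk3, Ntrk2, Sort1 and Dcps drawn to scale (grey bars; x axis, bases after the stop codon), with downward and upward triangles for the first and the second seed word. Ntrk3 carries both words at about the same place and the first one again 7560 bases after the stop codon; Ntrk2 and Sort1 carry the second one once each.

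Ntrk3 encodes TrkC. Control 1 and 2 gave a normalised read count of 5564 and 5969, and DcpS shRNA 1 and 2 gave 4764.5 and 4339. Both DcpS shRNA libraries lay below both controls, and the gap between the groups was wider than the spread within either. The mean went from 5766 ± 286 to 4552 ± 301 (SD, n = 2 per group), a log2 fold change of −0.34 (SE 0.06) on the log2(value + 1) scale (limma, Benjamini-Hochberg adjusted p 0.00168). The 95% interval of the difference was −0.46 to −0.22. Taken by library number, the log2 difference was −0.22 between the number 1 libraries and −0.46 between the number 2 libraries. The call held in 13 of 14 alternative analyses and ended where limma was run without an intensity trend and robust moderation (adjusted p 0.270), a setting under which 0 of 18110 genes passed and 2538 had an unadjusted p under 0.05.

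Ntrk2 encodes TrkB. It stood at 3044 and 3129.9 in the control libraries, against 2595 and 2541 with DcpS shRNA. The groups did not overlap, and libraries of a group lay close together. The mean went from 3087 ± 60.5 to 2568 ± 38.0 (SD, n = 2), a log2 fold change of −0.27 (SE 0.05; limma, Benjamini-Hochberg adjusted p 0.00525) with a 95% interval of −0.38 to −0.16. By library number the log2 difference was −0.23 and −0.30. The call ended without control 2 (adjusted p by limma 0.0898, log2 fold change −0.25) and in the limma run without trend (0.250). It held in the remaining 12 of 14 alternatives.

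The fall of both Trk receptors was seen in cultures in which other markers were also lower, as given above. Lower were 8 of 10 fibroblast, 3 of 6 tested endothelial and mural, and 4 of 7 tested astrocyte markers. Of 7 neuronal markers 2 were lower and 1 higher. The upper-layer neuron and interneuron sums were at 90.7% and 90.1% of their control means, and the radial glia sum at 104.5%. Astrocytes are known to express truncated TrkB. Among their markers Gja1 was lower (log2 fold change −0.67), as were Sparcl1 (−0.45), Gfap (−0.91) and Aqp4 (−1.13), while Aldoc was higher (0.21). The part of any of these cell types in the Ntrk2 and Ntrk3 values was not tested.

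**Figure D3:**
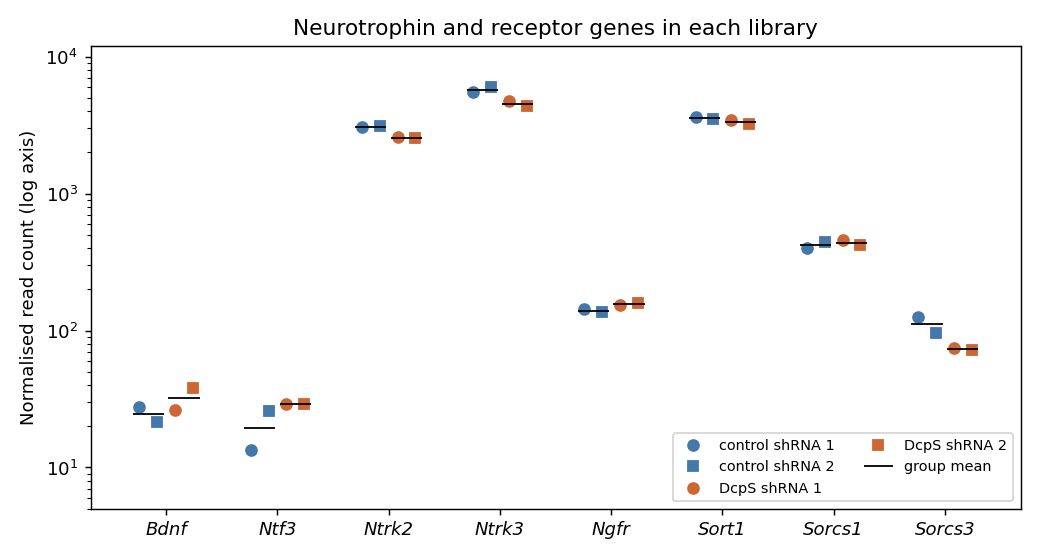
Normalised read count of each of the 8 genes in each library (y axis, log scale), with blue for control shRNA, orange for DcpS shRNA, circles and squares for library numbers 1 and 2, and a line at each group mean. For Ntrk2 and Ntrk3 both orange points lie below both blue points with little spread; Bdnf and Ntf3 are the lowest genes and their points scatter most.

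The ligands were rare in these cultures. Bdnf gave 29 and 21 reads in the control libraries, against 29 and 34 with DcpS shRNA, and exact 95% Poisson intervals of these counts ran from 19.4 to 41.6, 12.999 to 32.1, 19.4 to 41.6 and 23.5 to 47.5 (counting error only). The normalised read count of the gene was 27.6 and 21.5 in the control libraries, against 26.3 and 38.0 with DcpS shRNA. The groups overlapped. The log2 fold change was 0.36 (SE 0.29), with a 95% interval of −0.24 to 0.97, and did not pass (limma, Benjamini-Hochberg adjusted p 0.552). Without DcpS shRNA 2 it was 0.11 and without DcpS shRNA 1 it was 0.62, so neither a rise nor a fall could be resolved at this depth.

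Ntf3, the ligand of TrkC, gave 14 and 25 reads in the control libraries, against 32 and 26 with DcpS shRNA. The normalised read count of the gene was 13.3 and 25.6 in the control libraries, against 29.07 and 29.05 with DcpS shRNA. The groups did not overlap, but control 1 was the low library and control 2 lay near the DcpS shRNA values. The mean went from 19.5 ± 8.72 to 29.1 ± 0.0135 (SD, n = 2), and the log2 fold change of 0.62 (SE 0.33; 95% interval −0.08 to 1.32) did not pass (limma, Benjamini-Hochberg adjusted p 0.333). Without control 1 it was 0.17 and without control 2 it was 1.07.

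Ngfr, the gene of p75NTR, stood at 143 and 136 in the control libraries, against 153 and 159.8 with DcpS shRNA. Both DcpS shRNA values were above both controls, by a small margin. The mean went from 139.9 ± 5.01 to 156 ± 5.07 (SD, n = 2), and the log2 fold change was 0.16 (SE 0.13), with a 95% interval of −0.12 to 0.43, which did not pass (limma, Benjamini-Hochberg adjusted p 0.571).

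In the sortilin family, Sorcs3, a neuronal Vps10p receptor, gave the largest difference in size. It stood at 126 and 95.4 in the control libraries, against 74.5 and 72.6 with DcpS shRNA. The groups did not overlap, but the controls differed from each other by more than control 2 differed from DcpS shRNA 1. The log2 fold change was −0.57 (SE 0.17; 95% interval −0.94 to −0.20) and missed the threshold after adjustment over all genes (limma, Benjamini-Hochberg adjusted p 0.0684, unadjusted p 0.00468). With the library number as a block it passed, in limma (adjusted p 0.0167) and in edgeR (0.0230), as it did without control 2 (adjusted p by limma 0.0291), and without control 1 its adjusted p was 0.495. Over its 14 alternatives the adjusted p ran from 0.0167 to 0.495, and the log2 fold change was below 0 in each. No seed word was found in its 3′ UTR.

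Sort1, the gene of sortilin, was abundant and differed little. It stood at 3616 and 3521 in the control libraries, against 3467 and 3216 with DcpS shRNA. The groups did not overlap, with DcpS shRNA 1 only slightly below control 2. The log2 fold change of this gene, whose 3′ UTR holds a seed word, was −0.10 (SE 0.05, 95% interval −0.21 to 0.02). The change did not pass (limma, Benjamini-Hochberg adjusted p 0.375). The log2 fold change was −0.04 without DcpS shRNA 2 and −0.15 without DcpS shRNA 1. Sorcs1, a relative known for its part in the sorting of neuronal surface receptors, stood at 400.0 and 445 in the control libraries, against 457 and 422 with DcpS shRNA. These groups overlapped, and the log2 fold change was 0.06 (SE 0.09; 95% interval −0.13 to 0.25; limma, Benjamini-Hochberg adjusted p 0.797).

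Across the 8 genes, both DcpS shRNA libraries lay below both controls for 4, namely Ntrk2, Ntrk3, Sort1 and Sorcs3, and above both for 2, Ntf3 and Ngfr. The same held for 24.0% and 24.4% of all genes tested. The remaining 2, Bdnf and Sorcs1, overlapped.

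**Figure D4:**
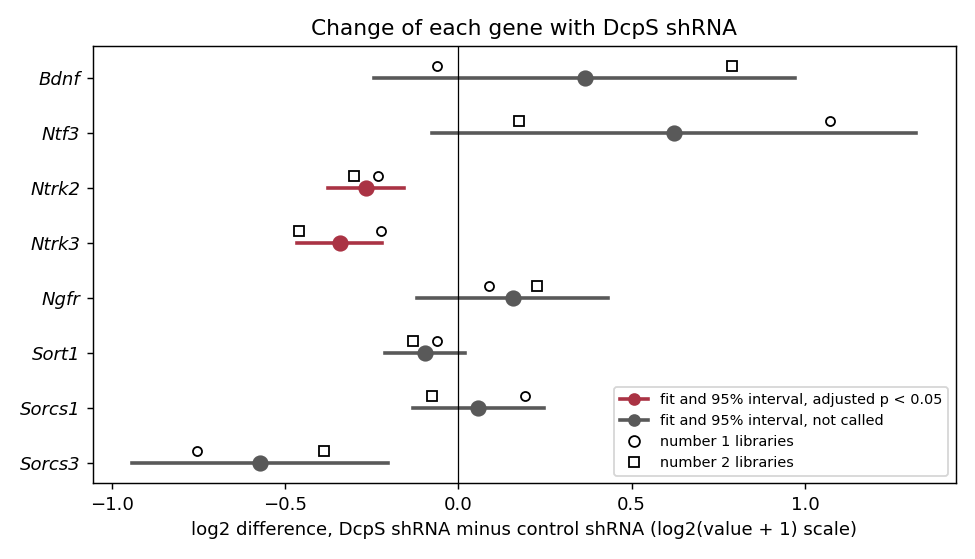
Log2 difference of DcpS shRNA minus control shRNA for each gene (x axis, log2(value + 1) scale): filled points and bars give the limma estimate with its 95% interval, red where the adjusted p was under 0.05, and open circles and squares the difference between the libraries numbered 1 and 2. The intervals of Ntrk2 and Ntrk3 are narrow and lie below 0; those of Bdnf and Ntf3 are wide and include 0.

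Levels were compared between genes as normalised reads per kilobase of merged annotated exons. In the controls Sort1 was highest (471 ± 8.94), followed by Ntrk3 (191 ± 9.48), Ntrk2 (160.02 ± 3.14), Sorcs1 (50.1 ± 3.77), Ngfr (40.6 ± 1.45), Sorcs3 (15.6 ± 3.07), Ntf3 (11.4 ± 5.09) and Bdnf (3.95 ± 0.685) reads per kilobase (SD, n = 2 each). The control values of Sorcs3 and Ntf3 overlapped and those of other neighbours in this order did not. With DcpS shRNA Ntf3 (17.0 reads per kilobase) stood above Sorcs3 (10.3), and the rest of the order was as in the controls. The merged exons of Ntrk3 and Ntrk2 add up to 30170 and 19292 bases. Per kilobase of the longest single transcript, the order of these 2 turned, with 353 for Ntrk2 and 293 for Ntrk3, so their relative level depends on which transcripts are present. Both Trk receptors stood above both ligands on either scale: Ntrk2 was at 160.02 and Bdnf at 3.95 reads per kilobase of merged exons in the controls.

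Genes that share exon bases with the 8 genes had few reads of their own. How reads in shared bases were assigned is not stated, so these low counts do not bound the share of antisense reads within the 8 genes. Antisense genes share 896 exon bases with Bdnf, 338 with Sort1 and 213 with Sorcs1, and these antisense genes stood at no more than 4.54 normalised reads in any library. For Sorcs1 and Sort1 this is small beside the gene's own level, and Bdnf's partner Gm45346 was at 0 in 3 libraries and at 1.82 in DcpS shRNA 1. No gene shares exon bases with Ntrk2, Ntrk3, Ngfr, Ntf3 or Sorcs3 in the annotation used.

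By the 4-library pattern alone, the genes nearest to Ntrk2 among 12288 with a mean of at least 5 CPM (reads scaled to a common library total) were Def8 (distance 0.0150) and Dcaf6 (0.0202). The distance is Euclidean, over log2 values centred on each gene's mean in 4 libraries. Nearest to Ntrk3 were Met (0.0197) and Itprid1 (0.0256). Ntrk2 and Ntrk3 were 0.115 from each other. The nearest genes were picked as the smallest of 12288 distances, so a larger value for this pair does not set the pair apart. Met and Itprid1 did not pass the test (limma, Benjamini-Hochberg adjusted p 0.0765 and 0.110). None of these 4 nearest genes has a seed word.

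Around the 8 genes, 8 lists of neurotrophin pathway genes held 156 genes, of which 143 could be tested. Of these, 15 were lower (10.5%) and 7 higher (4.90%), beside 3.65% and 2.14% of all genes tested, and the median log2 fold change was −0.02. A seed word was present in 21 of the 143, in 6 of the 15 lower genes and in 0 of the 7 higher ones. Over all scanned genes it was present in 33.1% of those called lower (214 of 646) and in 6.25% of those called higher (23 of 368). Without control 1 the count was 10 lower and 4 higher. Each gene described below as having fallen or risen had a limma adjusted p under 0.05.

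The largest called fall in these lists, that of Mmp9, was in proneurotrophin sorting and cleavage. Of 15 tested genes 4 were lower, 0 higher and 11 not called, with a median of −0.13. Furin, the proprotein convertase that cleaves proneurotrophins inside the cell, was at 671 and 635 normalised reads in the control libraries, against 355 and 354 with DcpS shRNA, a log2 fold change of −0.88 (SE 0.08; limma, Benjamini-Hochberg adjusted p 5.24e-06), and it has a seed word. The related convertase Pcsk6 fell by 0.82 on the log2 scale, with a low DcpS shRNA 2 (110.2 and 104 against 76.3 and 46.9). The secreted gelatinase Mmp9, which can cleave pro-BDNF outside the cell, fell by 1.29 (139 and 162 against 49.97 and 73.8). Neither Pcsk6 nor Mmp9 has a seed word. The call of Pcsk6 ended without control 1 (adjusted p by limma 0.0828), without DcpS shRNA 2 (0.176) and with DESeq2 (0.189). Its log2 fold change was −0.48 without DcpS shRNA 2 and −1.17 without DcpS shRNA 1.

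Adaptors and first enzymes of Trk signalling changed in both directions. Of 21 tested, 2 were lower, 2 higher and 17 not called, with a median of −0.01. Grb2, the adaptor that links activated receptors to Ras, was at 3411 and 3414 in the control libraries, against 2682 and 2771 with DcpS shRNA (log2 fold change −0.32, SE 0.05; limma, Benjamini-Hochberg adjusted p 0.00106) and has a seed word. Plcg1, the phospholipase C gamma that binds Trk receptors, was higher at 5609.5 and 5434 against 4525 and 4550.3 (log2 fold change 0.28, SE 0.05). The Rap1 exchange factor Rapgef1 fell by 0.21 and its partner adaptor Crk rose by 0.18. The Rapgef1 call ended without control 1 (adjusted p by limma 0.369), without control 2 (0.0889) and with DESeq2 (0.0526). The Crk call ended without control 1 (0.228), control 2 (0.340) or DcpS shRNA 2 (0.0795), with edgeR (0.0576), DESeq2 (0.190), TMM scaling (0.0558) and library-total scaling (0.0513).

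In the Ras-ERK and PI3K-AKT cascade 3 of 27 genes were lower, 1 higher and 23 not called, with a median of −0.01. A seed word is present in 7 of the 27 genes, among them all 3 lower ones. The words were chosen on these libraries, so this is no independent evidence. Pik3r1, the p85 regulatory subunit of PI3-kinase, stood at 2684 and 2884 in the control libraries, against 1913 and 1941 with DcpS shRNA (log2 fold change −0.53, SE 0.06; limma, Benjamini-Hochberg adjusted p 1.90e-05). Map2k1, the ERK-activating kinase MEK1, fell by 0.45 and the kinase Braf upstream of it by 0.28. The small GTPase Rap1a, which has no seed word, rose by 0.35, from 936 and 939 to 1209 and 1187. These 4 calls held without any 1 library and with DESeq2.

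**Figure D5:**
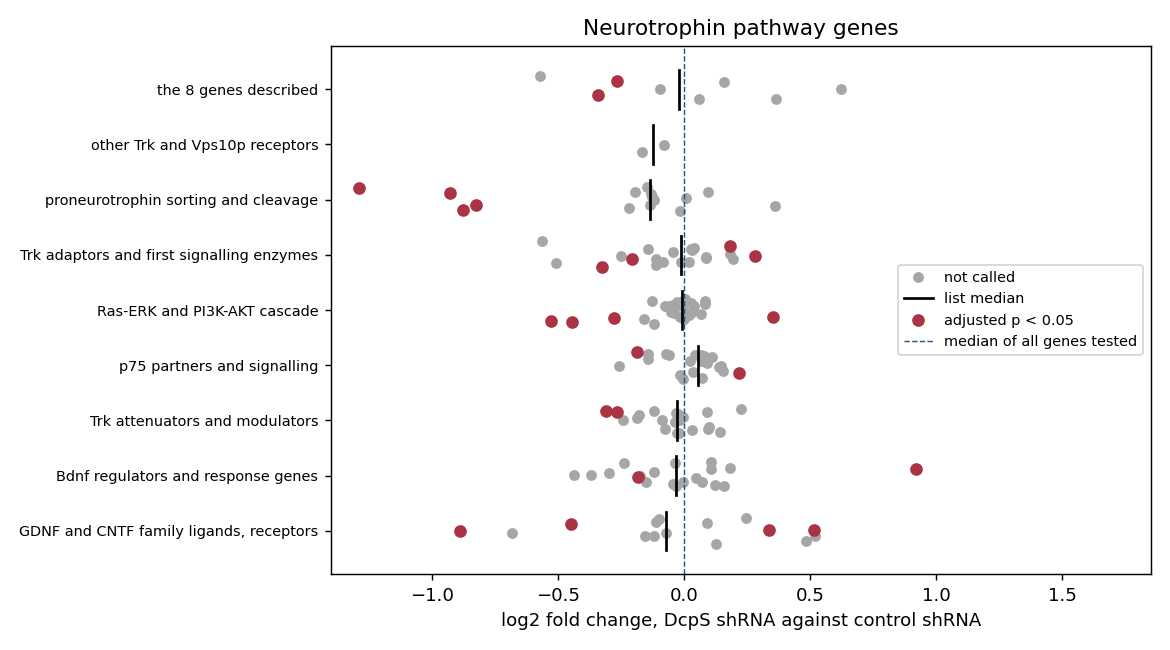
Log2 fold change (x axis) of each tested gene in the 8 pathway lists and of the 8 genes themselves (rows), with red for genes with an adjusted p under 0.05, grey for the rest, a black line at each list's median and a dashed line at the median of all genes tested. The 4 lowered genes of the sorting and cleavage list lie apart at −0.82 or below, and list medians stay between −0.13 and 0.06.

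Of 22 tested partners and effectors of p75NTR, 1 was lower, 1 higher and 20 not called, with a median of 0.06. The sheddase Adam10 fell by 0.19 and Tnfrsf19 (TROY), a p75-like co-receptor of the Nogo receptor complex, rose by 0.22. Both calls ended without control 1 (adjusted p by limma 0.238 and 0.190), without control 2 (0.284 and 0.133) and with DESeq2 (0.183 and 0.137), and that of Tnfrsf19 also without DcpS shRNA 1 (0.0617). Of 21 attenuators and modulators of Trk signalling, 2 were lower, 0 higher and 19 not called, with a median of −0.03. Islr2 (Linx), a leucine-rich repeat protein that binds Trk receptors, was the more abundant, at 10172 and 9732 in the control libraries, against 8223 and 7832.5 with DcpS shRNA (log2 fold change −0.31, SE 0.05). The ERK phosphatase gene Dusp4 fell by 0.27. The Islr2 call ended without control 1 (adjusted p by limma 0.0570), and that of Dusp4 without control 1 (0.325), without DcpS shRNA 2 (0.0795) and with DESeq2 (0.184).

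Among transcription factors that act on Bdnf and genes that respond to it, 1 of 20 was lower, 1 higher and 18 not called, with a median of −0.03. Creb1, the factor that binds cAMP response elements, fell by 0.18 and the activity-induced synaptic gene Arc rose by 0.92, from 24.7 and 39.0 to 69.1 and 51.4 normalised reads. The Creb1 call ended without control 1 (adjusted p by limma 0.205), control 2 (0.362) or DcpS shRNA 2 (0.0504), with library-total scaling (0.0510) and with DESeq2 (0.186), and that of Arc without control 1 (0.297, log2 fold change 0.60), without DcpS shRNA 1 (0.197) and with DESeq2 (0.290).

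Receptors of other neurotrophic factors also changed in both directions. Of 15 tested genes of the GDNF and CNTF families and related factors, 2 were lower, 2 higher and 11 not called, with a median of −0.07. Ret, the kinase receptor of GDNF family ligands, was at 70.3 and 75.9 in the control libraries, against 39.98 and 38.0 with DcpS shRNA (log2 fold change −0.89, SE 0.20). Il6st (gp130), the signalling subunit shared by CNTF and LIF receptors, fell by 0.45 and has a seed word. Cntfr, the CNTF-binding subunit, rose from 564 and 525 to 747 and 812 (log2 fold change 0.52, SE 0.08; limma, Benjamini-Hochberg adjusted p 0.000501), and the heparin-binding growth factor Mdk rose by 0.34. The call of Ret ended without control 2 (adjusted p by limma 0.0976) and with DESeq2 (0.185), and that of Mdk without control 2 (0.0640).

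Of the remaining genes of these families, the Vps10p receptors Sorl1 and Sorcs2 could be tested, and 0 of the 2 were called by limma. Sorl1, the sorting receptor SorLA, stood at 2296 and 2412 in the control libraries, against 2191 and 2005 with DcpS shRNA (log2 fold change −0.17, SE 0.06; limma, Benjamini-Hochberg adjusted p 0.119, unadjusted p 0.0114). Sorcs2, a proneurotrophin co-receptor of p75NTR, stood at 189 and 182 in the control libraries, against 169.9 and 181 with DcpS shRNA (log2 fold change −0.08, SE 0.12; limma, Benjamini-Hochberg adjusted p 0.797). Both hold a seed word. Without DcpS shRNA 1 Sorl1 passed (limma, Benjamini-Hochberg adjusted p 0.00951).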

How the data were processed

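The submitters' processing notes name HISAT2 2.2.0, SAMtools 1.3.1, Picard, featureCounts, DESeq2 and GRCm38, with no roles. The deposited values are a signal: read counts per gene, which the values show the authors divided by 1 size factor per library. Dividing each column by its smallest positive value gave whole reads for 100% of values (tolerance 0.001), and the implied factors were 0.895 to 1.10. The labels do not state the annotation, strand use or treatment of reads matching several genes.

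The main test was limma 3.58.1 on log2(normalised read count + 1), with intensity trend and robust moderation, group as the only term, two-sided, Benjamini-Hochberg adjusted over the 18110 genes passing edgeR's filterByExpr (minimum count 10) on the recovered reads. The log2(value + 1) scale understates changes of low genes. With 2 against 2 libraries an exact permutation test cannot give a p below 0.333. As a fixed floor, a count of 0 was taken to allow 3 reads, 0.138 to 0.169 CPM. Replicates differed by more than sampling noise (chi-square per degree of freedom 2.04 and 3.73). Alternatives were edgeR 4.0.16 and DESeq2 1.42.0 on recovered reads, scaling, pseudocount, filter, moderation, the replicate number as a block, and leaving out each library. The fit was tested on simulated data.

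Seed words were searched on the sense strand of GENCODE M21 3′ UTRs of protein-coding transcripts. Named genes were the 8 genes, Dcps, in each list at most the 4 largest called changes per direction, and the 2 nearest genes of each called gene; other genes named (Sorl1, Sorcs2, Ntf5 and markers) were chosen after their values were seen. A few genes of the lists are not reported here. The 8 genes, the lists and the seed words were chosen with earlier results of these data known.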

Additional observations from a re-analysis of the deposited data

How the results depend on the processing

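Directions of 7 of the 8 genes held in all 14 alternatives; Sorcs1, not called, turned to −0.019 without control 1 and ranged from −0.019 to 0.135 with 1 library left out. The count of genes called, 1048, was 448 with DESeq2, 1626 with the replicate block in limma and 1405 with the block in edgeR, and 594 to 1439 with 1 library left out. In the pathway lists the count of 22 became 12 with DESeq2 and 14 to 26 with 1 library left out. Without trend and robust moderation limma called 0 genes overall and 0 in the lists (2538 genes at an unadjusted p under 0.05), and Ntrk2 (−0.27, adjusted p 0.250) and Ntrk3 (−0.34, 0.270) lost their calls. With 1 library left out Ntrk2 ranged from −0.29 to −0.25 and Ntrk3 from −0.41 to −0.27. Sorcs3 gained a call with the replicate block (limma −0.57, adjusted p 0.0167; edgeR −0.60, 0.0230) and ranged from −0.77 to −0.37 with 1 library left out. The block changed no other call among the 8 genes. The cause was not tested. The titles give same-numbered libraries a common set number without saying what it marks. For that reason the main fit did not pair them. Deviations of same-numbered libraries correlated weakly (Pearson r 0.0429 over 18110 genes), which cannot settle whether a set shares a preparation. DESeq2 gave no adjusted p for Bdnf or Ntf3. With 14 to 34 reads per library, depth limits what can be said of these 2 ligands.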

Other observations

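Ntf5, the gene of neurotrophin-4, was close to absent. It gave 0 and 3 reads in the control libraries, against 1 and 2 with DcpS shRNA, where a count of 0 allows up to 3 reads in a library. Ntf5 was under the filter on low values, and with no filter on expression limma did not call it (Benjamini-Hochberg adjusted p 0.893).

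The length of the run shared with Dcps through a seed word did not order the share of lowered genes evenly. Of 608 genes with a run of 7 bases 17.4% were called lower, of 302 with 8 bases 23.2%, of 114 with 9 bases 18.4% and of 43 with 10 bases 23.3%. Of 21 genes with a run of 11 bases 3 were called lower, of 6 with 12 bases 2, and the only gene with 14 bases was Ntrk3. The part of run length in the Ntrk3 value (log2 fold change −0.34) was not tested. These counts describe words that were chosen on the same libraries and are not independent of the calls.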
